A study of Saccharomyces cerevisiae with 6 samples.

Results

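The genes described here encode the proteins of the yeast mitochondrial ribosome. They were chosen by symbol: MRPL, MRPS, MRP or RSM followed by digits (MRP8 left out), together with IMG1, IMG2, MNP1, YML6, SWS2 and PET123. The rule found 73 of 9274 yeast probe sets on the array, which stand for 72 of 5656 measured genes. The mitochondrial ribosome is a separate machine inside the organelle that translates the few messenger RNAs of the mitochondrial genome, most of which encode core subunits of the respiratory chain and ATP synthase. Its RNAs come from the mitochondrial genome, but all of its proteins except Var1 are encoded in the nucleus, made in the cytosol and imported. In yeast, loss of mitochondrial translation ends in loss of the mitochondrial genome and so of respiration. By their systematic names in the RefSeq annotation, 42 members belong to the large subunit and 30, RSM22 without such a name among them, to the small one. The same names place 29 members in families shared by all domains of life (names starting with u), 16 in families shared with bacteria (b) and 26 among proteins particular to mitochondria (m).

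Messenger RNA was measured on 6 Affymetrix yeast arrays, 1 per condition and none replicated. The strain YSX3 is MATalpha and carries the xylose genes XYL1, XYL2 and XYL3 of Pichia stipitis, integrated as leu2::LEU2-XYL1, ura3::URA3-XYL2 and Ty3::NEO-XYL3. It was grown in YP medium with glucose or with xylose, either aerobically (20 g/L sugar, 200 ml in 1000 ml flasks at 300 rpm, harvested at an OD600 of 1) or with limited oxygen (40 g/L sugar, 50 ml in 125 ml flasks at 100 rpm, harvested at an OD600 of 30). The third background was FPL-YSX3P, a respiration-deficient (petite) mutant of the strain, harvested from glucose medium at an OD600 of 1 or moved from there into xylose medium for 24 hours. Oxygen supply, sugar concentration and cell density therefore changed together between the aerobic and the oxygen-limited arrays and cannot be told apart, nor can the petite mutation and the transfer on the petite xylose array.

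Intensities below are linear and scaled so that all arrays share a median of 151, and differences are on the log2 scale, where 1 is a doubling. Values under 61.7, the 25th percentile of all scaled intensities, were set to that floor. A scaled intensity is a share of the RNA on the array, so fewer of these transcripts per cell and more of all others cannot be told apart. Precision is limited by how few arrays there are. Of the 72 members, between 69 and 72 lay above the floor on each array, and all 72 entered the fit. MRPL22, MRP35 and RSM23 were the 3 with any array at the floor. The labels were also set against marker genes. COX1 and OLI1, which are encoded in the mitochondrial genome, read 963 and 2313 on the aerobic glucose array. Both were under the floor on the petite arrays, although COX3 read 137 and 204 there. Of the 6 genes of that genome in the fit, 5 had petite minus aerobic estimates below 0. COX3 went the other way, at 1.44. All 4 alpha-cell markers lay above the floor on every array. Of the 6 a-cell markers STE2, AGA2 and BAR1 stayed at 102 or lower and MFA1 was between 488 and 1245. MFA2 and STE6 are not given here, and all 6 lay above the floor on at least 1 array.

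The members followed a common profile over the arrays. After each gene was centred on its own mean, the median member stood at 0.11 on the aerobic glucose array and at 0.47 on the aerobic xylose array. It stood at -0.36 and -0.05 on the oxygen-limited glucose and xylose arrays, and at -0.22 and 0.12 on the petite glucose and xylose arrays. Within each background the xylose array was the higher one, and on each sugar the aerobic array was the highest. The median of all 5462 genes in the fit, by contrast, stayed between -0.07 and 0.08. Large and small subunit genes had similar medians on 5 of the arrays, and on the oxygen-limited glucose array they stood at -0.26 and -0.46.

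**Figure D1:**
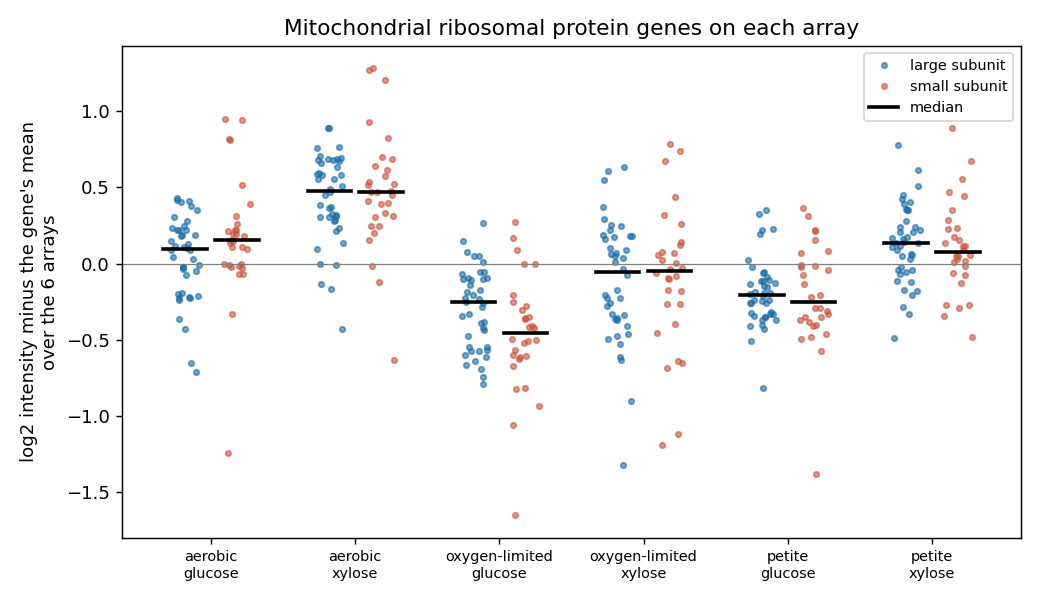
Log2 intensity of each member gene minus its mean over the 6 arrays (vertical axis) on each array, with blue points for the large subunit, red points for the small subunit and black bars for the medians. Both subunits have their highest medians on the aerobic xylose array, at 0.48 and 0.47.

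Not every member followed it. Pearson's correlation over the 6 arrays between a gene and the mean of the other members had a median of 0.79. It exceeded 0.8 for 34 of the 72 genes and was below 0 for 6. It is a description only, since the 6 arrays are shared by all genes. MRPL40 (uL24m, a protein near the exit of the peptide tunnel) was closest to the common profile, at 0.98. The 6 genes below 0 were MRPL51, MRPL35, MRP2, MRP49, MRPS16 and MRPL28, which were named after their values were seen.

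In the fit used here, members passed only between oxygen-limited and aerobic culture. Limma called 20 members lower and 1 higher than in aerobic culture, and 51 did not pass. The share of all genes called lower was 15.9%, and 8.04% were called higher. The median member differed by -0.56, against -0.08 for all genes. At an unadjusted p under 0.05 the counts were 36 members lower and 3 higher, against 25.8% and 16% of all genes. In 44 members both oxygen-limited arrays lay below both aerobic arrays, and in 4 they lay above; the shares over all genes were 36.8% and 25.8%. On both sugars 52 members were lower and 8 higher, against 43.9% and 32.8% of all genes. At least 2-fold lower were 12 members and at least 2-fold higher 0, against 12% and 5.75%. The call rests on the additive model described under the processing, in which both sugars share a common oxygen difference.

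The 3 genes that fell most encode small subunit proteins. MRPS18 (uS11m) read 479 and 571 in aerobic glucose and xylose, 119 and 108 under oxygen limitation, and 180 and 364 in petite cells. Its oxygen difference was -2.20 ± 0.31 (SE), with a limma adjusted p of 0.020 and lower values on both sugars. RSM26 (mS42, a protein related to superoxide dismutases) read 515 and 703 in aerobic culture and 93.1 and 188 under oxygen limitation, a difference of -2.18 ± 0.30 (limma adjusted p = 0.019). MRP4 (uS2m) read 295 and 409 in aerobic culture, 88.0 and 77.7 under oxygen limitation, and 166 and 167 in petite cells, and its difference was -2.07 ± 0.23 (limma adjusted p = 0.018). For all 3 genes the aerobic arrays were the 2 highest of the 6 and the oxygen-limited arrays the 2 lowest.

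Another 8 of the members called lower fell by at least 2-fold. Of these 7 belong to families shared with bacteria or all domains of life, as do 16 and 29 of all 72 members. This split was not tested. MRPL49 (bL21m) was at -1.27, MRPL8 (bL17m) at -1.19, MRPS17 (uS17m) at -1.18 and IMG2 (mL49, named for the integrity of the mitochondrial genome) at -1.17. MRPL7 (uL5m) and MRPL40 were at -1.10 and -1.09, MRPS9 (uS9m) at -1.07 and MRPL32 (bL32m, which the m-AAA protease matures in the matrix) at -1.06. Limma adjusted p ran from 0.021 for MRPS17 and IMG2 to 0.029 for MRPL32. MRPL40, for instance, read 299 and 399 in aerobic culture and 140 and 187 under oxygen limitation, so that the groups lay apart on either sugar. MRP7 (bL27m, a protein close to the peptidyl transferase centre in bacteria) had a similar estimate of -1.16 but an SE of 0.53, and it did not pass (limma adjusted p = 0.161).

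The remaining 9 genes called lower differed by -0.68 to -0.96. They were MRPL23 (uL13m), MRPL9 (uL3m), RSM27 (mS33), RSM10 (uS10m), MRP13 (mS44), MRPL10 (uL15m), YML6 (uL4m), MRPL50 (bL9m) and MRP17 (bS6m), in order of size. MRP17 read 1194 and 1547 in aerobic culture against 729 and 990 under oxygen limitation, which gave a limma adjusted p of 0.048. Without the petite pair of arrays RSM10, MRP13, MRPL10, YML6, MRPL50 and MRP17 no longer passed, and limma called 14 members lower and 0 higher.

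**Figure D2:**
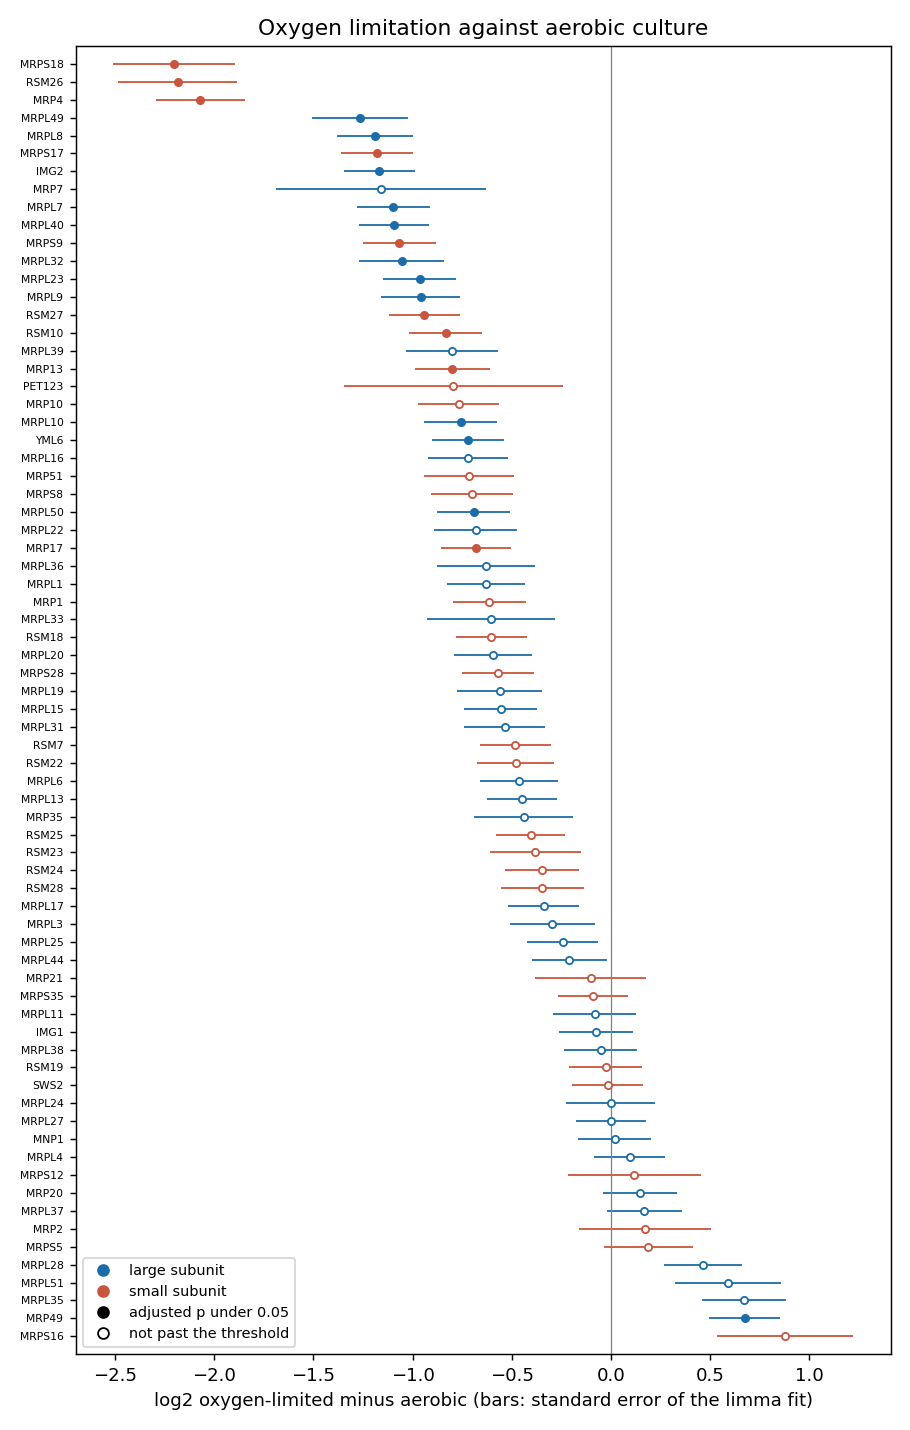
Estimated log2 difference of each of the 72 member genes between oxygen-limited and aerobic culture (horizontal axis, bars give the standard error of the limma fit), sorted from lowest to highest, with filled points for genes past the threshold. MRPS18, RSM26 and MRP4 stand at -2.20, -2.18 and -2.07, and MRP49 is the only filled point to the right of 0.

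Of the 13 members with estimates above 0 under oxygen limitation, 1 passed. MRP49 (mL61) rose by 0.67 ± 0.18, from 562 and 835 in aerobic culture to 856 and 1395 (limma adjusted p = 0.050, just under the threshold of 0.05). The call was lost with a floor at the 10th percentile, with an intensity trend in the variance, and without the petite pair, where limma adjusted p was 0.0558, 0.0576 and 0.0672. The other 4 of the 5 highest estimates missed the threshold. They were MRPS16 (bS16m) at 0.88, the highest of all, MRPL35 (mL38) at 0.67, MRPL51 (mL43) at 0.59 and MRPL28 (mL40) at 0.46, with limma adjusted p from 0.074 to 0.156. MRPL35 read 398 and 457 in aerobic culture and 615 and 748 under oxygen limitation, so its groups did not overlap. Of these 5 genes 4 encode large subunit proteins particular to mitochondria, a pattern noticed after the values were seen.

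By origin of the protein family, limma called 11 lower and 0 higher of the 29 members shared by all domains of life, with a median of -0.63. Of the 16 shared with bacteria 5 were called lower and 0 higher, with a median of -0.65. Of the 26 particular to mitochondria 4 were called lower and 1 higher, with a median of -0.36. By subunit, 11 lower and 1 higher of 42 genes were called in the large subunit and 9 lower and 0 higher of 30 in the small one, with medians of -0.55 and -0.59. Over all genes 15.9% were called lower and 8.04% higher, and the 4 of 26 lie at that share. These splits were not tested against each other.

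The number of a probe set, which the array maker assigned, moved with part of this comparison. Among the highest-numbered probe sets, 668 genes of the fit had a median of -0.48 and 202 were called lower, 30.2%. There the 10 members had a median of -0.51, with 4 called lower (RSM26, MRPL49, MRPL8 and MRP17) and 1 higher (MRP49). By their locus tags these 10 members lie on chromosomes X and XI, so number and chromosome cannot be told apart for them. Among lower numbers the 62 members had a median of -0.57 with 16 called lower, whereas 4794 genes there had a median of -0.02 and 666 called lower, 13.9%. With the running median by number subtracted from each array, 15 members were called lower and 1 higher. MRPL49 and MRPL8 then went to -0.63 and -0.64 and missed the threshold (limma adjusted p = 0.144 and 0.0684).

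Scaling moves the counts as well. With intensities as deposited, where the oxygen-limited arrays were brighter, limma called 10 members lower and 4 higher. Of all genes it then called 430 lower and 1032 higher, the opposite split to that after scaling, and the median of all genes shifted to 0.21. The median member was then at -0.21, which is 0.42 below all genes, against 0.48 below them after scaling. MRP4, MRPL40, MRPL7, MRPS17 and MRPS9 were the 5 of the 21 called members that stayed called in each of the 10 alternatives run. MRPS18 and RSM26 lost the call when genes at the floor on every array were kept in the fit (limma adjusted p = 0.0549 and 0.0533), with estimates as before.

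On xylose the members were shifted upward together, though by little. The median member was 0.33 higher than on glucose, against -0.03 for all genes. Of the 72 estimates 70 were above 0, and over all genes 2556 of 5462 were. No member passed in limma over all genes in either direction, where 0.677% of all genes were called higher and 0.0732% lower. At an unadjusted p under 0.05, 20 members were higher and 0 lower, against 12% and 9.79% of all genes. In all 3 backgrounds 48 members were higher on xylose and 0 were lower in all 3, while 22.2% and 23.3% of all genes were. The highest estimate was 0.85, so 0 members reached 2-fold in either direction, where 3.95% and 1.15% of all genes did. In limma the sugar, oxygen and petite comparisons come from the same fit with 2 residual degrees of freedom, which limits what can pass in each of them.

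In aerobic culture 68 of 72 members were higher on xylose, against 49.9% of all genes, with a median of 0.40 and quartiles of 0.29 and 0.47, where all genes had quartiles of -0.19 and 0.20. At least 2-fold higher was 1 member and 1 was lower (3.13% and 2.1% of all genes), and past 3-fold these were 1 and 0 (1.46% and 0.253%). Under oxygen limitation 58 of 70 members measured above the floor on at least 1 array were higher, against 50.1% of all genes, with a median of 0.30 and quartiles of 0.083 and 0.45, where all genes had -0.35 and 0.40. Past 2-fold 1 was higher and 1 lower (8.76% and 4.24%), and past 3-fold 0 and 0 (3.53% and 0.958%). In petite cells 60 of 72 were higher, against 47.3%, with a median of 0.25 and quartiles of 0.11 and 0.51, where all genes had -0.40 and 0.32. Past 2-fold 3 were higher and 0 lower (5.76% and 5.28%), and past 3-fold 0 and 0 (1.89% and 0.896%). The corresponding medians of all genes lay between -0.04 and 0.00. In petite cells the transfer came together with the sugar. Whether the backgrounds differ in this shift was not tested, because each has 1 array per sugar.

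**Figure D3:**
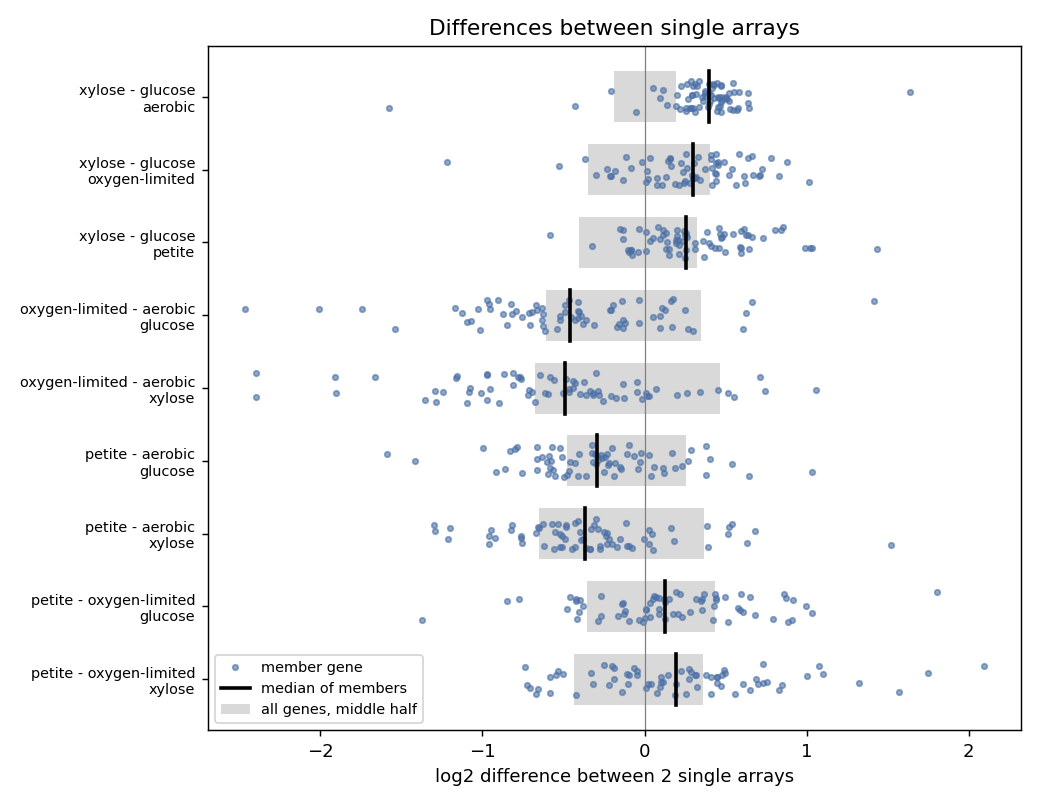
Log2 differences between 2 single arrays (horizontal axis) for the 9 pairs compared, with a blue point per member gene, a black bar at the members' median and a grey bar from the lower to the upper quartile of all genes. In the aerobic sugar pair the members' median of 0.40 lies beyond the upper quartile of all genes, 0.20.

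Single genes illustrate the size of the sugar difference. MRPL6 (uL6m) had the smallest limma adjusted p among members, 0.115, with an estimate of 0.74 ± 0.16. Its glucose and xylose readings were 316 and 474 in aerobic, 225 and 350 in oxygen-limited and 168 and 334 in petite cells. MRP20 (uL23m, at the tunnel exit) read 153 and 219, 164 and 252, and 174 and 315 in the same order, an estimate of 0.67 ± 0.15 (limma adjusted p = 0.129). In both genes the xylose arrays lay above all 3 glucose arrays, as they did in 13 of 72 members, against 6.94% of all genes. In 0 members they lay below, against 3.63%. MRPS16 and MRPS12 had the highest estimates, 0.85 and 0.78, each with a single array that stood apart. RSM10 was at 0.66, MRP49 at 0.58, RSM7 (uS7m) at 0.54 and RSM28 (mS46) at 0.53. At the other end, MRPL19 (uL11m, a protein at the base of the ribosomal stalk) was at -0.14 and PET123 (mS26) at -0.29. They were the only members with an estimate below 0 in the fit over the 3 backgrounds. Neither was lower on xylose in all 3, since MRPL19 was higher in aerobic culture and PET123 in petite cells. The estimate of PET123 turned to 0.36 without the aerobic pair.

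A few members departed from the others on single arrays, or on several in the case of PET123. PET123, which was found through its genetic interaction with a translational activator of COX3, read 278 on aerobic glucose but 93.3 on aerobic xylose. It read 95.6 and 90.2 under oxygen limitation and 153 and 268 in petite cells. Its aerobic sugar difference of -1.58 thus ran against 68 members that were higher, and its petite xylose array was 1.52 above aerobic xylose. MRPS16 read 173 on aerobic glucose and between 354 and 681 on the other 5 arrays, which gave it the largest aerobic sugar difference among members, 1.64. MRPS12 (uS12m, a protein of the decoding centre) read 276 on petite glucose, against 715 to 1229 on the other 5 arrays. MRP7 read 96.2 on oxygen-limited xylose and 200 to 410 elsewhere. These 4 genes had among the largest residuals from the additive model, up to 0.65 for PET123, and without replicates their single arrays could not be checked.

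MRPS12 and RSM19 (uS19m) are the 1 pair of members that neighbour each other in the RefSeq annotation. RSM19 read 332 and 413 in aerobic culture, 324 and 408 under oxygen limitation, and 438 and 663 in petite cells. The petite glucose array was thus above aerobic glucose for RSM19 and 1.59 below it for MRPS12, so the neighbours did not share the petite difference on glucose.

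**Figure D4:**
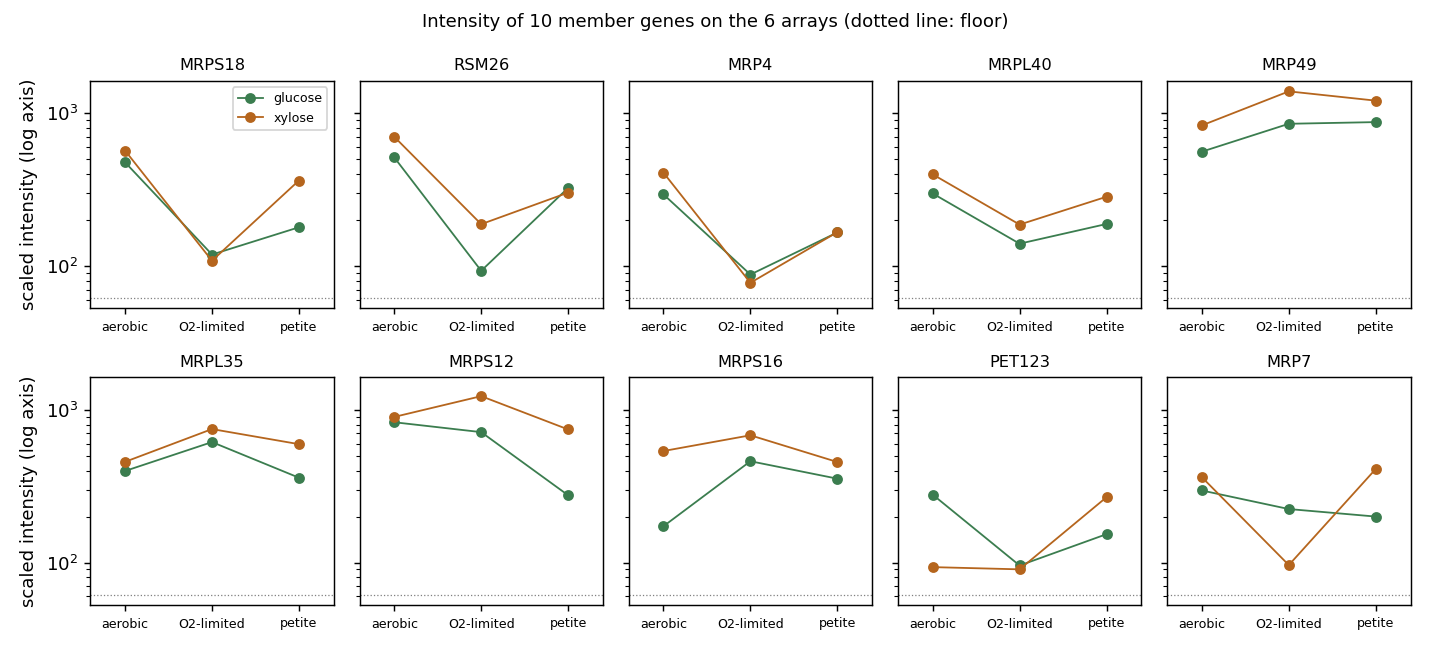
Scaled intensity (vertical log axis) of 10 member genes in aerobic, oxygen-limited and petite cells, with lines joining the arrays of glucose (green) and of xylose (brown) and a dotted line at the floor of 61.7. MRPS18, RSM26 and MRP4 dip under oxygen limitation on both sugars, whereas MRPS16, MRPS12 and MRP7 each have a single array that stands apart. PET123 is highest on the aerobic glucose and petite xylose arrays.

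Petite cells had lower intensities for most members than aerobic cells, but none passed. The median member was at -0.33, against -0.11 for all genes. Of the 72 estimates 58 were below 0, and over all genes 3194 of 5462 were. Limma called 0 members in either direction, as for all but 0.0183% of genes in each. At an unadjusted p under 0.05, 21 members were lower and 3 higher, against 22.2% and 11.6% of all genes. In 33 members both petite arrays lay below both aerobic arrays and in 5 above, against 37.9% and 21.8% of all genes. On both sugars 49 were lower and 7 higher, against 44.5% and 28.5%. At least 2-fold lower were 3 members and higher 0, against 7.6% and 4.85%. With intensities as deposited the median member was at -0.048 and that of all genes at 0.11.

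Of the 8 lowest petite estimates 6 belonged to the small subunit. MRPS9 read 270 and 359 in aerobic culture and 135 and 157 in petite cells, a difference of -1.10 ± 0.18 (limma adjusted p = 0.051). With the floor at the 10th percentile, with the variance trend, with the running median removed and without high-numbered probe sets it passed, with a limma adjusted p from 0.0404 to 0.0487. MRP4 was at -1.06 (limma adjusted p = 0.056) and passed under the first and the third of these, at 0.0479 and 0.0481. MRPS18 followed at -1.03, MRP51 (bS1m) at -0.98, RSM26 at -0.94 and MRPS12 at -0.93. The lowest large subunit genes were MRPL7 at -0.84 and MRPL44 (mL53) at -0.78. The dimmer probe set of MRPL44, not used for this ranking, was at -1.68, below the estimate of MRPS9. MRP49 at 0.59, RSM19 at 0.54 and MRPL28 at 0.53 had the highest estimates, none past the threshold. The petite and the oxygen comparison share the aerobic arrays, so their estimates were not set against each other.

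On single sugars, 57 of 72 members were lower under oxygen limitation than in aerobic culture on glucose and 59 on xylose, against 57.2% and 53.3% of all genes, with medians of -0.46 and -0.49. On glucose 10 were at least 2-fold lower and 1 higher (11.5% and 4.5%), and 3 and 0 past 3-fold (3.27% and 0.642%). On xylose these were 15 and 1 (15.4% and 9.36%) and, past 3-fold, 5 and 0 (5.22% and 2.52%). Petite cells were lower than aerobic cells in 56 members on glucose and 58 on xylose, against 58.3% and 57.6%, with medians of -0.30 and -0.37. On glucose 2 were at least 2-fold lower and 1 higher (5.05% and 4.72%), and 1 and 0 past 3-fold (0.854% and 1.37%). On xylose these were 4 and 1 (13.5% and 8.44%), and 0 and 0 past 3-fold (3.25% and 2.93%). The higher member in the petite comparison was MRPS16 on glucose and PET123 on xylose.

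Between petite and oxygen-limited cells, which share no array, the differences were small for most members. On glucose 48 of 70 members were higher in petite cells, against 52.7% of all genes, with a median of 0.13. On xylose 46 of 71 were higher, against 47.9%, with a median of 0.19. At least 2-fold higher in petite cells were 2 members on glucose and 7 on xylose, where 7.33% and 6.95% of all genes were, and 1 and 0 were at least 2-fold lower (3.75% and 6.13%). Past 3-fold 1 was higher on glucose and 2 on xylose (2.37% and 1.91%), and 0 were lower on either (0.528% and 1.61%). RSM26 on glucose (1.80) and MRP7, MRPS18 and PET123 on xylose (2.09, 1.75 and 1.57) led these, and MRPS12 was lowest on glucose at -1.37. RSM26 is among the high-numbered probe sets, and in this glucose pair all such genes had a median of 0.62, against -0.02 for the rest. The members split likewise, at 0.39 for the 10 high-numbered ones and 0.09 for the other 60. The part of this in the result was not tested.

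Members that sit together in the ribosome could differ in their values. Of the stalk and its base, MNP1 (bL12m) and MRPL11 (uL10m) had oxygen differences of 0.02 and -0.08, each within 1 SE of 0, and MRPL19 was at -0.56 (limma adjusted p = 0.111). MNP1 read 321 and 470 in aerobic culture and 362 and 428 under oxygen limitation, so its groups overlapped, whereas for MRPL19 both oxygen-limited arrays lay below both aerobic ones. MRPL22 (uL22m) was at -0.68 (limma adjusted p = 0.069), an estimate that rests on floor values, since both oxygen-limited arrays were at the floor. The superoxide dismutase relatives RSM26 and MRP1 (mS43) were at -2.18 and -0.61, the latter with a limma adjusted p of 0.066. This grouping was made with the values in view.

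MRPL44 was the 1 member with several probe sets, and these disagreed in size. The brighter one, used above, read 759 and 922 in aerobic culture, 691 and 756 under oxygen limitation and 503 and 475 in petite cells. The other read 282 and 380, then 107 and 120, then 96.8 and 108. Their oxygen differences were -0.21 and -1.53 and their petite differences -0.78 and -1.68, of the same sign but far apart.

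Some ribosomal proteins of the organelle carry other symbols, so the rule leaves them out. VAR1, the member of the small subunit encoded in the mitochondrial genome, was under the floor on every array. Of the 4 others on a list written for this purpose, MHR1 (mL67) fell under oxygen limitation by 0.78 (limma adjusted p = 0.034). EHD3 (mS47), NAM9 (uS4m) and RTC6 (bL36m) were at -1.08, -0.45 and 0.05 and did not pass. RML2 (uL2m), found through its systematic name after the values were seen, fell by 0.92 (limma adjusted p = 0.028). The other 3 genes found that way, FYV4 (mS41), MRX14 (bL34m) and QRI5 (mS38), were at 0.18, -0.18 and 0.17 and did not pass. RML2 read 347 and 510 in aerobic culture, 197 and 249 under oxygen limitation, and 244 and 359 in petite cells. It was the gene most like the members: of 5390 other genes it had the highest correlation with their mean over the 6 arrays, 0.99. CYC1 (iso-1-cytochrome c), MSS51 (the translational activator of COX1), PDH1, TIM23 (the channel of the inner membrane translocase), CPP1, RHO5, CAR2, NSG2 and YDR034C-A followed, with correlations from 0.99 to 0.96. With 6 arrays and this many genes such values are a description of these arrays.

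Other genes of mitochondrial gene expression were counted in the same way. Of 24 translation factor and aminoacyl-tRNA synthetase genes limma called 3 lower and 1 higher under oxygen limitation, with a median of -0.20. The share called lower was 12.5%, below the 15.9% of all genes, and 8.04% of all genes were called higher. TUF1, the elongation factor EF-Tu of the organelle, fell by 1.51 (limma adjusted p = 0.020), the aspartyl-tRNA synthetase MSD1 by 0.89 (0.032) and the elongation factor MEF1 by 0.69 (0.0496). GTF1, a subunit of the amidotransferase that makes glutaminyl-tRNA, rose by 1.31 (limma adjusted p = 0.025). Of 27 tested genes for ribosome assembly, mitochondrial transcription and translational activation, limma called 1 lower and 0 higher, with a median of -0.11. The share called lower, 3.7%, was below that of all genes, and 15 estimates were below 0 and 12 above. The gene called was AEP2, an activator of the translation of ATP synthase subunit 9, at -1.29 (limma adjusted p = 0.019), with 1 oxygen-limited array at the floor. On xylose and in petite cells limma called 0 genes of either list. Their medians were 0.18 and 0.23 on xylose and -0.21 and -0.26 in petite cells. At an unadjusted p under 0.05, 4 and 8 genes were higher and 0 lower on xylose, against 12% and 9.79% of all genes. In petite cells 2 and 5 were lower at that p and 1 in each list was higher, against 22.2% and 11.6%.

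Genes of other protein complexes are given for comparison. The 80 cytosolic ribosomal protein genes had a median of -0.30 on xylose, where the members had 0.33. Of the 80, 77 had estimates below 0, against 2906 of 5462 over all genes. Under oxygen limitation the cytosolic genes were at -0.68, with 34 called lower (42.5%) and 0 higher, against 15.9% and 8.04% of all genes. In petite cells they were at -0.58. The 31 nuclear genes of complexes III, IV and V had a median of 0.83 on xylose, -0.26 under oxygen limitation and -1.38 in petite cells. Limma called 0 of them in each, although 29 were lower in petite cells at an unadjusted p under 0.05, against 22.2% of all genes. Between single arrays their oxygen difference had a median of -0.71 on glucose and 0.16 on xylose, so the -0.26 joins medians of opposite sign. Their xylose difference had medians of 0.63 in aerobic, 1.46 in oxygen-limited and 0.48 in petite cells. The lists were not tested against each other. In petite cells the median of the respiratory genes was thus -1.38 and that of the mitochondrial ribosome -0.33.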

How the data were processed

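Intensities were deposited by the authors as linear values per probe set. Arrays were labelled, hybridised and scanned by the manufacturer's instructions, per the labels' protocols. Software, summarisation and scaling were not given in the labels used. Of 9335 rows, 1 had no value and 60 were controls. Of the 9274 yeast probe sets 6504 have 1 gene symbol in the platform annotation, 328 several and 2442 none. RefSeq R64 gave locus tags, systematic protein names and neighbours.

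Arrays were brought to the same median, floored at the 25th percentile and put on the log2 scale, and of several probe sets of a gene the one with the highest mean was used. Genes with at least 1 array above the floor (5462) were fitted with limma 3.58.1 in R 4.3.3 as background plus sugar, with 2 residual degrees of freedom and Benjamini-Hochberg adjustment over all of them. A sugar effect common to the 3 backgrounds is assumed. The threshold was an adjusted p under 0.05. Differences between 2 arrays have no test; those with both at the floor were left out. Members, lists and tests were chosen with earlier results of these data known. Genes named are all members past the threshold (the rule asked for the 12 lowest p), those with the 8 highest and 8 lowest estimates per comparison (in part), the 3 highest and lowest per array pair (in part), and genes said to be chosen with values in view. MRP35 (bL35m), which the rule for symbols had placed in the small subunit, was counted in the large one. Sequences were not used here. The fit was tested on simulated data.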

Additional observations from a re-analysis of the deposited data

Results flagged for a closer look

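MRP7 moved in opposite directions with sugar in different backgrounds. Its xylose minus glucose difference was -1.22 under oxygen limitation and 1.04 in petite cells. This difference between backgrounds was not tested, since each value comes from 2 single arrays. Both are measured above the floor.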

How the results depend on the processing

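No paired analysis was possible because each condition has 1 array, so that the groups share 1 replicate number and a block on it could not be fitted. The sugar comparison already sets xylose against glucose within each background, and the oxygen and petite comparisons set backgrounds against each other within each sugar. Among members, the sugar comparison kept 0 calls and a median between 0.29 and 0.35 under every alternative. In the oxygen comparison members called lower went from 20 to 10 with values as deposited and to 12 with no filter on low values. Members called higher went from 1 to 4 as deposited, 2 with quantile normalization and 0 with the floor at the 10th percentile, the limma trend or without high-numbered probe sets (an alternative added after seeing the data). The member median moved to -0.21 as deposited. In the petite comparison members called lower went from 0 to 2 with the floor at the 10th percentile or the running median removed, and to 1 with the trend or without high-numbered probe sets, and the member median moved to -0.048 as deposited. Leaving out the petite pair gave 14 members lower and 0 higher in the oxygen comparison, and without the oxygen-limited pair the petite comparison had 0 and 0.

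Over all genes, xylose calls of 37 higher and 4 lower became 20 higher with quantile normalization, 83 and 15 with the floor at the 10th percentile, 0 and 0 at the 40th or with no filter, and 22 and 2 with the mean over probe sets. Calls lower became 7 with the trend, 12 with the running median removed and 8 without high-numbered probe sets. Leaving out a pair gave 0 to 42 higher and 0 to 7 lower. Oxygen calls of 439 higher and 868 lower became 1032 and 430 as deposited, 558 lower with quantile normalization, 214 higher at the 40th percentile, and 229 and 467 with no filter. Petite calls of 1 and 1 became 168 and 31 as deposited, 0 and 0 with quantile normalization, the 40th percentile, the mean over probe sets or no filter, 219 and 340 at the 10th percentile, 133 and 230 with the trend, 208 and 307 with the running median removed, and 76 and 126 without high-numbered probe sets. Without the oxygen-limited pair they were 0 and 1. The cause of these changes was not tested.

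Over the leave-one-out fits without the aerobic, the oxygen-limited or the petite pair, the sugar estimate changed sign for 7 named members. It ranged from -0.83 to 0.36 for PET123, -0.16 to 0.24 for MRPL36, -0.32 to 0.33 for MRP2, -0.47 to 0.66 for MRP7, -0.079 to 0.19 for MRPS8, -0.076 to 0.18 for MRPL11 and -0.087 to 0.24 for MRP4. At a 3-fold threshold members lower in oxygen-limited than aerobic cells numbered 3 on glucose and 5 on xylose, and 1 was lower in petite than aerobic cells on glucose. Higher in petite than oxygen-limited cells were 1 on glucose and 2 on xylose, and 1 was higher on xylose in aerobic culture. All other counts at 3-fold were 0. Signal close to the floor limits MRPL22, MRP35 and RSM23.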
